A study of Camelina sativa with 12 samples.

Results

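Roots of camelina (*Camelina sativa* cv. DH55) that grew beside a bacterium making ACC deaminase were compared with roots that made the enzyme from a transgene. One group was wild-type DH55 in soil inoculated with the endophyte *Pseudomonas migulae* 8R6 (*P. migulae* 8R6-treated, below 8R6-treated), and the other was DH55 carrying *acdS* of *Pseudomonas* sp. UW4 behind the *rolD* promoter (*rolD::acdS*). Each gave 3 root libraries, chosen by their labels, 6 of the 12 in the series. The other 6 were 3 of the wild-type DH55 control and 3 of DH55 expressing *acdS* from the constitutive *35S* promoter (*35S::acdS*). All plants, controls included, were watered with 192 mM NaCl (15 dS/m) for 21 days and were 28 days old at harvest. In the methods of the study, soil received either bacteria or, as the control, the MgSO4 carrier. They do not say separately what pots of the transgenic groups received. Of 49932 genes with a row, 48099 reached 1 CPM (reads of a gene scaled to the size of its library) in at least 3 of the 12 libraries and were tested.

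The 2 groups differ in more than the source of the enzyme. An endophyte brings its own *acdS* together with everything else a living bacterium does, and it was added to soil, whereas the *rolD* promoter, from *Agrobacterium rhizogenes*, is active mainly in root tissue of lines that the study describes as homozygous with a single insert. Plants treated with the *acdS* mutant of 8R6 and plants without salt were not analysed here, so the source of the enzyme and the presence of bacteria cannot be told apart. The level of *acdS* itself was not analysed here. In whole roots, fewer cells of a type and less RNA per cell cannot be told apart.

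Ethylene is made in plants from 1-aminocyclopropane-1-carboxylate (ACC). ACC deaminase, the enzyme encoded by *acdS*, splits ACC into α-ketobutyrate and ammonia and so removes the precursor before ethylene is formed. Under salt, stress ethylene holds back root growth, and its signal is read out by ethylene response factors that also answer to jasmonate and abscisic acid. Roles of single genes below are those of their *Arabidopsis thaliana* counterparts, and camelina, a hexaploid, often carries a set of near-identical copies of each. Reads of such copies can be shared between them in counting, so values within a set are uncertain.

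Before any single gene, 1 stretch of chromosome 4 set the libraries apart. In 1 of the control and 1 of the 8R6-treated libraries, both numbered 2, 39 genes were listed at 0 that had at least 3 CPM in each of the other 10 libraries. All 39 lay between Csa04g058100 and Csa04g065810, in the order of the identifiers, and no other pair of libraries shared a single gene of this kind. The stretch held 283 genes with a row, and 215 of them were high enough to express each library as a percentage of the *rolD::acdS* mean. Over these 215 genes the median was 54.9%, 6.19% and 50.0% in 8R6-treated replicates 1, 2 and 3, and 100%, 5.17% and 51.4% in control replicates 1, 2 and 3. It was 104%, 98.4% and 97.2% in the *rolD::acdS* libraries, and between 97.5% and 102% in the *35S::acdS* libraries. The 8R6-treated libraries were thus all low here, 2 of them near one level and replicate 2 far below, control replicates 2 and 3 were low in the same way, and the *rolD::acdS* and *35S::acdS* libraries were all at the full level.

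**Figure D1:**
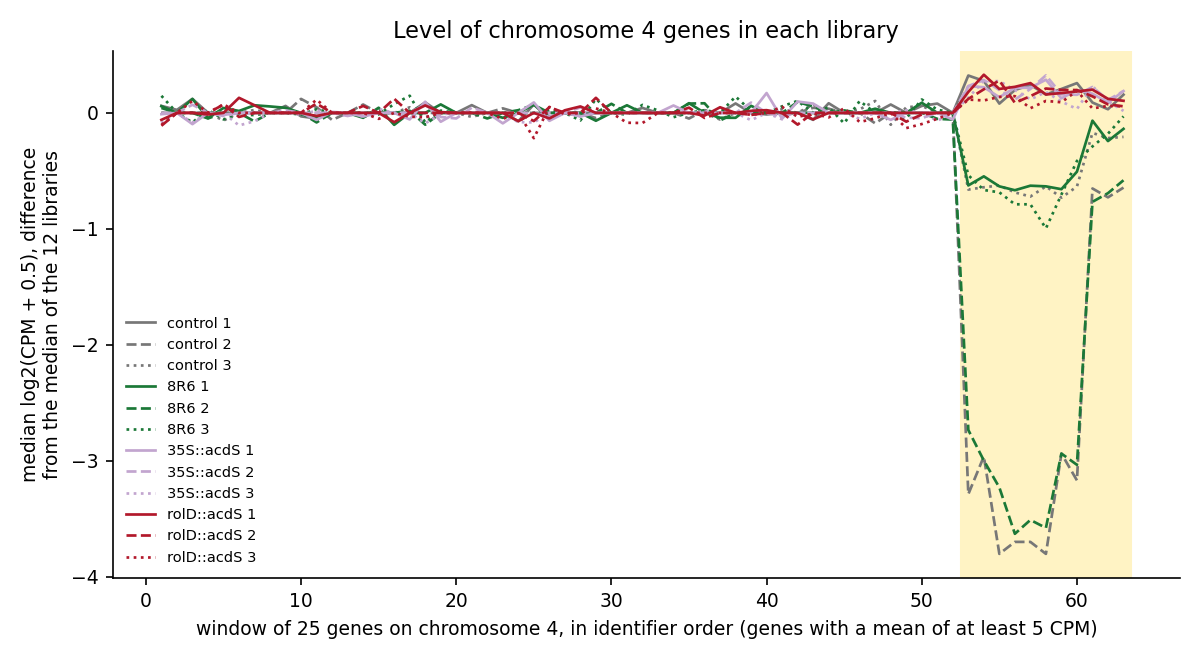
Median log2(CPM + 0.5) of windows of 25 genes along chromosome 4, as the difference from the median of the 12 libraries, with 1 line per library and the shaded windows touching the stretch or the genes beyond it. All lines stay near 0 until the shaded part, where replicate 2 of the control and of the 8R6-treated roots drop furthest and control replicate 3 and 8R6 replicates 1 and 3 run between them and the other 7 libraries.

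Single genes of the stretch showed these levels. Csa04g061790, which the files do not annotate, had 148, 18 and 148 CPM in the 8R6-treated libraries, 313, 17 and 152 CPM in the control and 285, 316 and 339 CPM in *rolD::acdS*. Its 8R6-treated libraries all lay below those of *rolD::acdS*, and replicate 2 lay lowest in both untransformed groups. Csa04g060760 was an exception, with 698, 340 and 951 CPM against 715, 644 and 589 CPM, so its groups overlapped, although replicate 2 was again the lowest. Both genes were picked after their values were seen, as 2 of the 5 highest in *rolD::acdS* roots.

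Beyond the stretch, the last 97 genes of chromosome 4, up to Csa04g068160, were low to a lesser degree. Over 78 of them the median was 79.0%, 54.4% and 75% of the *rolD::acdS* mean in 8R6-treated replicates 1, 2 and 3, and 103%, 57.0% and 79.5% in the control. Within the 8R6-treated group and within the control, the order of the libraries was that of the stretch, with replicate 2 lowest in both groups. Over 1317 genes of chromosome 4 before the stretch, the 12 medians lay between 97.5% and 100%. Of 1300 windows of 25 genes over all chromosomes, 11 touched these 2 regions. In the rest, the median log2 fold change between the groups lay between -0.20 and 0.25, and within the stretch it reached -1.92 at the lowest. The boundaries were set after the values were seen, so they are a description, and the cause was not tested.

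**Figure D2:**
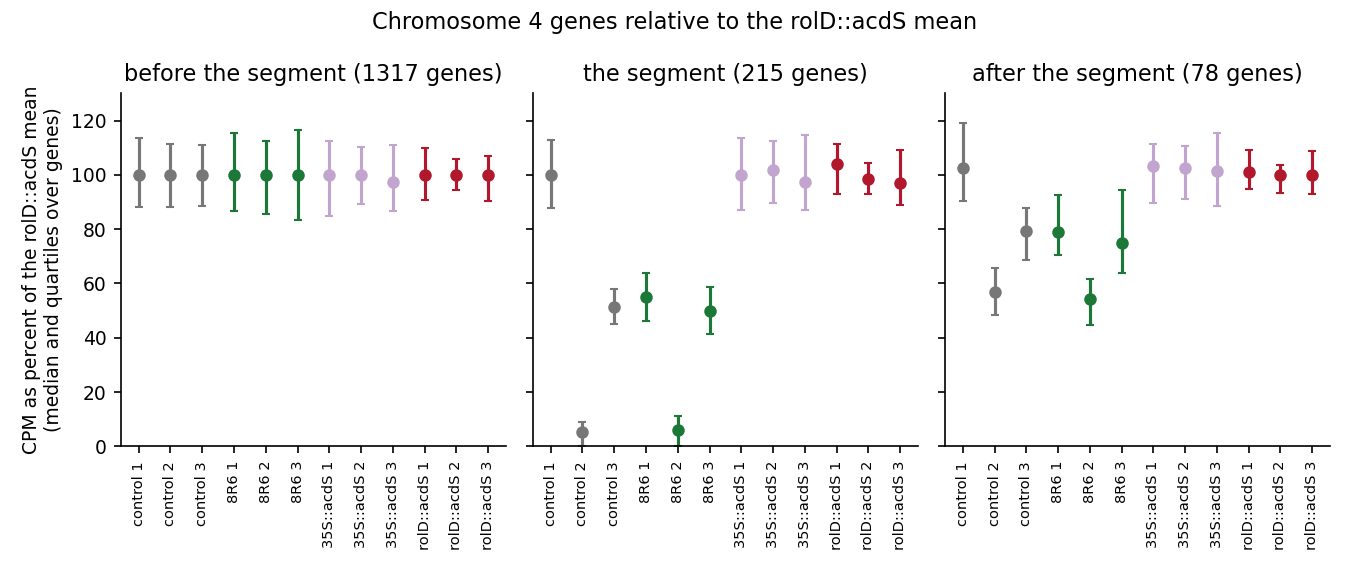
CPM as a percentage of the *rolD::acdS* mean, for genes of chromosome 4 before, in and after the stretch, with points for the median over genes in each of the 12 libraries and bars for the quartiles. Before the stretch all libraries sit near 100%, in it the 8R6-treated libraries sit at 54.9%, 6.19% and 50.0%, and after it at 79.0%, 54.4% and 75%.

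These genes form part of the difference between the groups. Over all tested genes, 4 (0.00832%) passed a Benjamini-Hochberg adjusted p of at most 0.05 with an absolute log2 fold change above 0.8 in limma, 3 higher (0.00624%) and 1 lower (0.00208%) in 8R6-treated roots. At an unadjusted p of at most 0.05, called nominally higher or lower from here on, the counts were 3268 higher (6.79%) and 2964 lower (6.16%), together 13.0% of the genes. Libraries of the 2 groups did not overlap at an absolute log2 fold change above 0.8 for 472 genes higher (0.981%) and 653 lower (1.36%) in 8R6-treated roots. In the stretch, 88 of 273 tested genes (32.2%) were nominally lower, 0 were higher and 0 passed the adjusted test, with a median log2 fold change of -1.66. Beyond it, 41 of 97 (42.3%) were nominally lower, with a median of -0.49. At any fold change, libraries did not overlap for 210 lower genes of the stretch (76.9%) and 37 lower genes beyond it (38.1%). In both regions 0 genes were higher without overlap. Outside the 2 regions, 2676 genes were higher and 2206 lower without overlap. The counts above an absolute log2 fold change of 0.8 were not split by region. With both regions left out, 3282 genes were nominally higher and 2847 lower, and 6 and 6 passed the adjusted test. A log2 fold change here is the mean of log2(CPM + 0.5) in 8R6-treated roots minus that in *rolD::acdS* roots. Its median over all genes was 0 with quartiles of -0.16 and 0.18. The p-values measure the spread between these libraries, which the study calls biological replicates.

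The 4 genes that passed were low in level. Csa00485s040, without annotation in the sources used here, had 13, 14 and 14 CPM in 8R6-treated replicates 1, 2 and 3 and 7, 5 and 5 CPM in *rolD::acdS*. The control, at 8 CPM in each library, and *35S::acdS*, at 8, 7 and 8 CPM, lay between the groups or level with *rolD::acdS*. The 2 groups did not overlap, giving a log2 fold change of 1.22 (SE 0.13, adjusted p = 0.0230, limma). Csa12g033440, annotated as cysteine-rich receptor kinase 14, a receptor-like kinase, was listed at 0 in all 8R6-treated libraries and at 2 CPM in each *rolD::acdS* library (adjusted p = 0.0347). The control had 2, 2 and 1 CPM. The other 2, Csa11g007100 and Csa20g039340, stood at 1 CPM in each of the 9 libraries outside *rolD::acdS* and were listed at 0 in all 3 of *rolD::acdS* (adjusted p = 0.0230 for both). Their values were equal within every group, so the test of both rests on the variance expected from other genes. None of the 4 passed without 8R6 replicate 2 or without *rolD::acdS* replicate 2, when 0 genes were called, nor with a pseudocount of 1.

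The genes given here, just short of the threshold, had higher levels than the called genes in the group where they were high. Only the first had a larger difference than all of the called genes. RAP2.6 (Csa03g046520), an ethylene response factor also induced by salt, jasmonate and abscisic acid, had 3, 1 and 2 CPM in 8R6-treated roots and 56, 27 and 51 CPM in *rolD::acdS* roots. The control at 12, 2 and 4 CPM and *35S::acdS* at 6, 2 and 8 CPM lay near the 8R6-treated level, and no *rolD::acdS* library overlapped any other. Its log2 fold change was -4.19 (SE 0.61, adjusted p = 0.0642, limma). The amino acid permease AAP4 (Csa18g037440) had 24, 33 and 38 CPM against 14, 13 and 12 CPM, with the control at 11, 15 and 15 CPM. Here the 8R6-treated libraries were the ones that stood apart, with a log2 fold change of 1.23 (SE 0.18, adjusted p = 0.0642). A transporter of the nitrate and peptide family (Csa06g028440) had 30, 23 and 41 CPM against 95, 83 and 114 CPM, and the control at 63, 44 and 52 CPM lay between, with a log2 fold change of -1.65 (SE 0.24, adjusted p = 0.0642). In all, 63 genes had an adjusted p of at most 0.10, of which 25 were higher and 38 lower in 8R6-treated roots.

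Gene groups were taken from 27 lists by function with 208 tested genes, of which 38 were nominally higher and 85 nominally lower in 8R6-treated roots and 0 passed the adjusted test. The study drew most of these genes from the same libraries, as genes that differed from the control in one of the treated groups, so the counts are not independent evidence of a direction. Every list count below is to be read beside the shares over all genes. These were 6.79% nominally higher and 6.16% lower, with 5.56% and 5.10% without overlap. Over 175 tested genes that the study lists for 8R6 or *rolD::acdS*, 45 were nominally higher and 107 lower, with a median log2 fold change of -1.10. Over 225 genes that it lists only for *35S::acdS*, whose libraries enter this comparison only through the shared estimate of spread, 21 were nominally higher and 29 lower, with a median of -0.03, close to that of all genes. List medians include genes listed at 0 in a group, whose fitted value depends on the 0.5 added to each CPM.

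**Figure D3:**
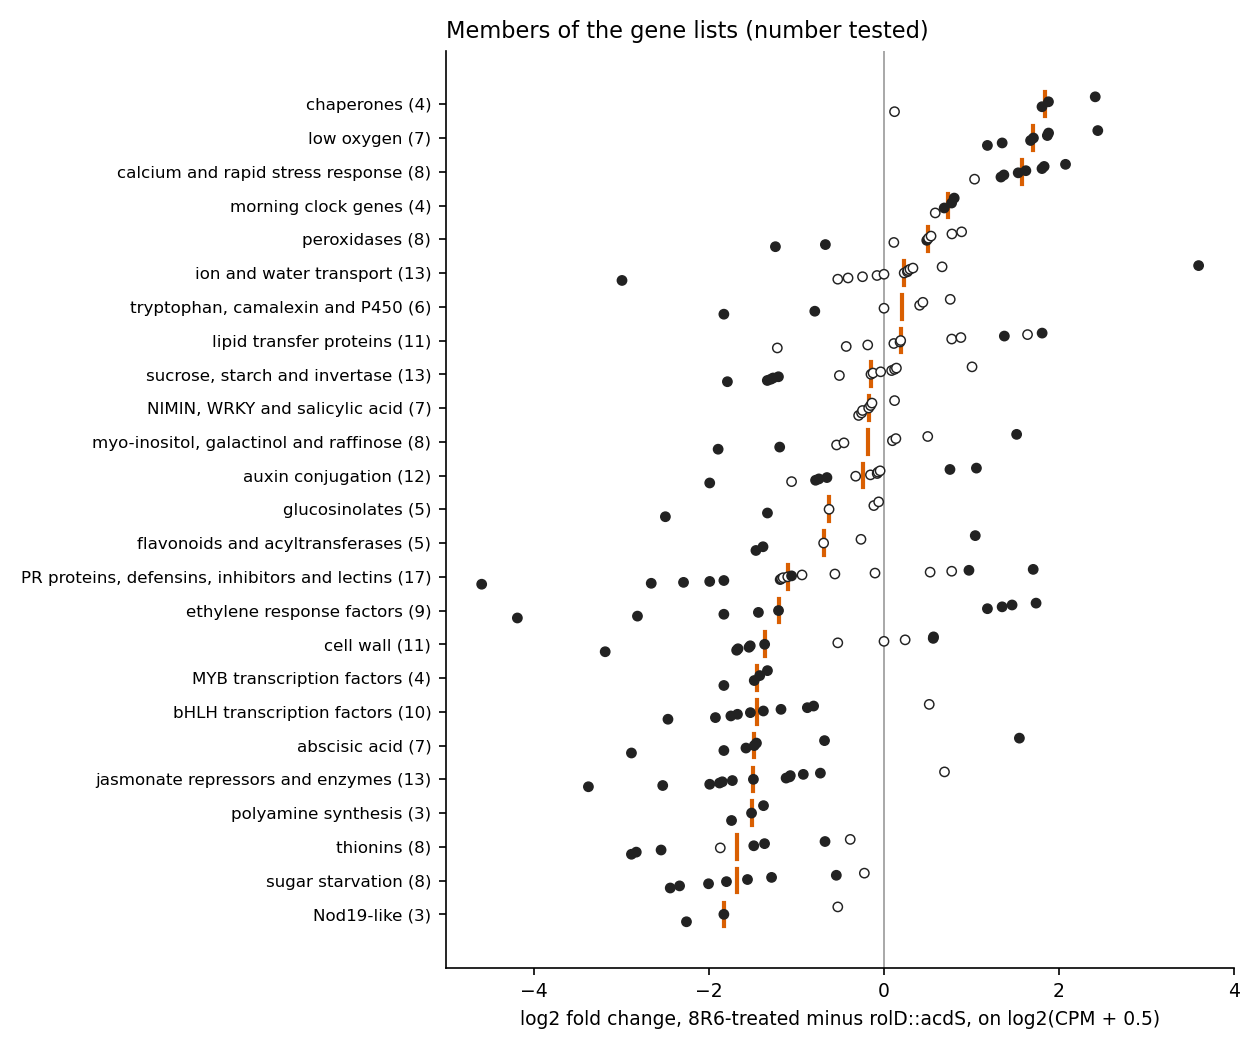
Log2 fold change of each tested member (points) of the 25 lists that are not cell type markers, with the number tested in parentheses, filled where the unadjusted p was at most 0.05 and with the list median as an orange bar. The chaperone, low oxygen and calcium lists lie to the right, with medians of 1.84, 1.71 and 1.58, and the jasmonate, thionin and sugar starvation lists to the left, with medians of -1.49, -1.68 and -1.68.

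Genes of the low oxygen response had higher values in 8R6-treated than in *rolD::acdS* roots. All 7 members were nominally higher and none of their libraries overlapped between the groups, where 5.56% of all genes did not overlap in that direction, and the median log2 fold change was 1.71. Pyruvate decarboxylase 1 (Csa12g011790), which opens ethanol fermentation, had 44, 77 and 48 CPM in 8R6-treated roots and 9, 9 and 11 CPM in *rolD::acdS* roots. The control at 15, 22 and 70 CPM and *35S::acdS* at 7, 19 and 72 CPM spanned both levels, each with replicate 3 high, and the log2 fold change was 2.44 (SE 0.73, unadjusted p = 0.00686, adjusted p = 0.220, limma). LBD41, a transcription factor gene switched on early in low oxygen, had 3 copies. The copy Csa15g002200 had 53, 56 and 56 CPM against 22, 12 and 12 CPM, Csa01g002130 had 36, 46 and 34 CPM against 14, 8 and 9 CPM, and Csa19g004650 had 54, 65 and 54 CPM against 32, 18 and 19 CPM. All copies had even values in the 8R6-treated libraries and their highest *rolD::acdS* value in replicate 1. Both copies of plant cysteine oxidase 1, an oxygen-dependent enzyme that marks response factors for breakdown, went the same way, with 13, 15 and 13 against 5, 3 and 4 CPM for Csa20g021600 (log2 fold change 1.68, SE 0.39). Leaving out any single library, or control and 8R6 replicates 2 together, left 7 of 7 nominally higher. The study had listed all 7 for *rolD::acdS* on these libraries, so neither this nor the share above is independent evidence.

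Another group with higher values in 8R6-treated roots was that of calcium signalling and rapid stress responses, and it rested on 2 of the 3 libraries. Of 8 members, 7 were nominally higher, 0 lower, and 5 did not overlap between the groups, with a median log2 fold change of 1.58. Over all genes, 6.79% were nominally higher and 5.56% did not overlap in that direction. The study had listed all 8 for 8R6 on these libraries, so their selection favoured this direction. The EF-hand calcium-binding protein Csa10g015600 had 6, 17 and 18 CPM against 4, 2 and 2 CPM, with *35S::acdS* replicate 1 higher still at 30 CPM. Its 2 further copies, Csa11g016920 with 9, 24 and 37 against 8, 6 and 6 CPM and Csa12g024640 with 10, 18 and 25 against 10, 4 and 6 CPM, had 8R6 replicate 1 near the *rolD::acdS* level. ZAT10 (Csa14g035300), a zinc finger repressor of stress genes, had 24, 47 and 56 CPM against 21, 14 and 24 CPM, and the groups touched at 24 CPM, in 8R6 replicate 1 and *rolD::acdS* replicate 3. Alpha-dioxygenase 1 (Csa01g001030), an enzyme of oxylipin synthesis, had 2, 4 and 1 CPM against 1, 0 and 0 CPM. The count of 7 became 1 without 8R6 replicate 2 or without *rolD::acdS* replicate 2, 2 without replicate 3 of either group, and 0 without control and 8R6 replicates 2.

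The list of ethylene response factors went both ways, with 4 of 9 members nominally higher and 5 nominally lower in 8R6-treated roots. ERF106 (Csa20g010010) had 11, 17 and 13 CPM against 6, 6 and 5 CPM, a log2 fold change of 1.18 (SE 0.20, unadjusted p = 0.000107, adjusted p = 0.0935, limma), and its groups did not overlap. ERF105, a stress-responsive factor, had 2 copies with 14, 43 and 84 against 22, 7 and 8 CPM (Csa11g082690) and 13, 36 and 57 against 15, 10 and 10 CPM (Csa18g022000). For both copies 8R6 replicate 1 lay below *rolD::acdS* replicate 1, so the groups overlapped, and *35S::acdS* replicate 1 was again high at 55 and 45 CPM. The nominally lower members were both RAP2.6 copies, 2 TOE3-like AP2 factors, relatives of a floral repressor, and a DREB2-type factor, the last 3 being relatives in the wider AP2/ERF family that are not ethylene response factors by name. The TOE3-like Csa18g040290 had 7, 6 and 6 CPM against 14, 14 and 18 CPM with a log2 fold change of -1.21 (SE 0.17, adjusted p = 0.0642), and its groups did not overlap. The higher count fell to 1 when only the 6 libraries were fitted, and to 1 or 2 without any control library, replicate 2 or 3 of either compared group, or *35S::acdS* replicate 3, while the lower count became 2 with a filter at a mean of 5 CPM.

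Chaperone genes were few and low in level. Of 4 members, 3 were nominally higher without overlap, among them 2 DnaJ-domain (HSP40) genes, co-chaperones of HSP70. Csa16g035090 had 4, 17 and 6 CPM against 1, 1 and 1 CPM, and Csa07g039500 had 10, 30 and 20 CPM against 6, 4 and 4 CPM. Both were highest in 8R6 replicate 2, with log2 fold changes of 2.41 (SE 0.46) and 1.88 (SE 0.37) and adjusted p of 0.111 and 0.115 (limma). The morning clock genes, listed by the study for *35S::acdS* only, were also nominally higher in 3 of 4 cases. The 3 copies of LHY, a MYB-type factor of the central oscillator, had 58, 59 and 59 against 49, 30 and 27 CPM (Csa14g002120), 68, 70 and 56 against 55, 32 and 28 CPM (Csa17g001540) and 58, 65 and 52 against 47, 28 and 35 CPM (Csa03g002180). In each copy *rolD::acdS* replicate 1 came closest to the 8R6-treated level, which was near the control.

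**Figure D4:**
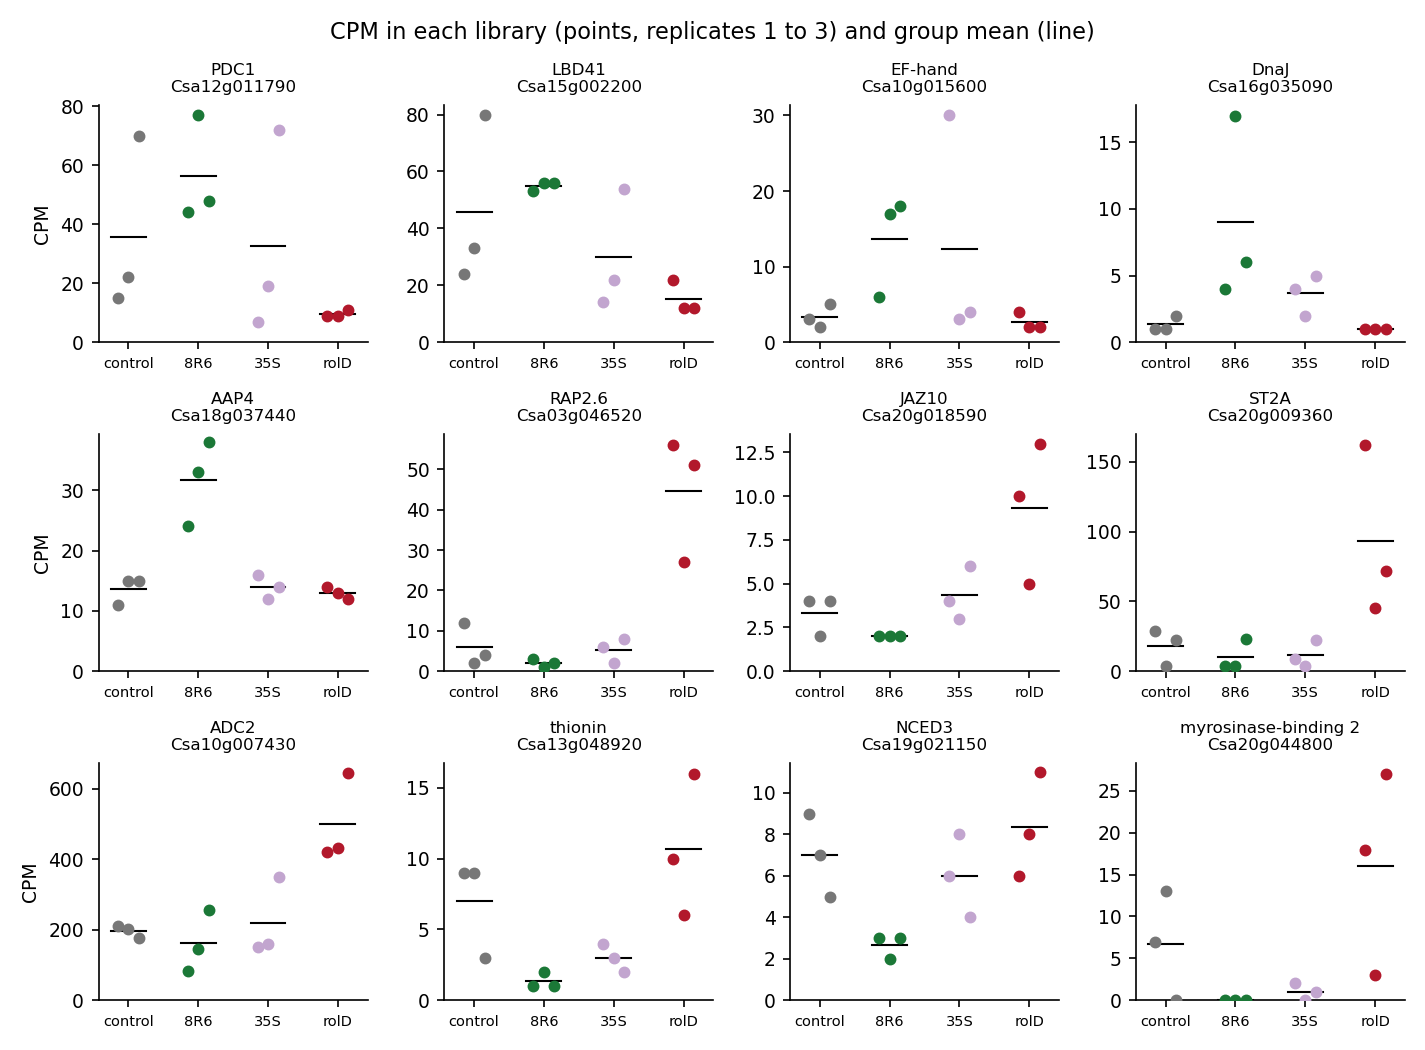
CPM of 12 genes in each of the 12 libraries (points, replicates 1 to 3 from left to right) with the group mean as a line, for all 4 groups, each axis starting at 0. The *rolD::acdS* mean is the lowest of the 4 groups for PDC1 and the highest for RAP2.6, JAZ10, ST2A and ADC2, and the 8R6-treated mean is the highest for AAP4.

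Jasmonate genes had higher values in *rolD::acdS* roots. Of 13 tested, 12 were nominally lower in 8R6-treated roots and 0 higher, 11 did not overlap, where 5.10% of all genes did not overlap in that direction, and the median log2 fold change was -1.49. Apart from Csa16g040840, the study had listed them for 8R6 or *rolD::acdS* in the same libraries, so their selection favoured this contrast with all genes. Among the JAZ repressors, which hold back jasmonate responses and are themselves induced by jasmonate, JAZ10 (Csa20g018590) had 2, 2 and 2 CPM against 10, 5 and 13 CPM. Its copies Csa13g015820, with 3, 2 and 3 against 10, 6 and 16 CPM, and Csa08g005100, with 16, 12 and 18 against 37, 21 and 48 CPM, had the same order of *rolD::acdS* libraries, replicate 2 being the lowest of its group in all copies. JAZ9 (Csa16g032280) had 6, 7 and 7 CPM against 22, 11 and 31 CPM, a log2 fold change of -1.49 (SE 0.30, unadjusted p = 0.000506, adjusted p = 0.124, limma).

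The jasmonate enzymes went with the repressors. Allene oxide synthase (Csa20g066350), which commits fatty acid hydroperoxides to jasmonate, had 22, 25 and 35 CPM against 55, 44 and 76 CPM, with the control at 35, 29 and 35 CPM and a log2 fold change of -1.07 (SE 0.21, adjusted p = 0.115, limma). Hydroperoxide lyase 1 (Csa11g035060), which takes the same substrates to leaf aldehydes, had 2, 3 and 4 CPM against 5, 6 and 7 CPM. Sulfotransferase 2A, which sulfates and so inactivates 12-hydroxyjasmonate, had 4, 4 and 23 CPM against 162, 45 and 72 CPM in the copy Csa20g009360. That was a log2 fold change of -3.38 (SE 0.89, adjusted p = 0.183) without overlap, with 8R6 replicate 3 above the other 2 and *rolD::acdS* replicate 1 far above its group. The exception was 12-oxophytodienoate reductase 1 (Csa16g040840), from the list for *35S::acdS*, with 25, 20 and 20 CPM against 28, 8 and 10 CPM and overlapping groups.

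Abscisic acid genes included the rate-limiting enzyme of its synthesis. Of 7 members, 6 were nominally lower, 1 was higher, and the median was -1.48. NCED3 (Csa19g021150), that enzyme, had 3, 2 and 3 CPM against 6, 8 and 11 CPM, with the control at 9, 7 and 5 CPM and a log2 fold change of -1.46 (SE 0.29, adjusted p = 0.120, limma). Here the 8R6-treated libraries were the low ones and the control was near *rolD::acdS*. KIN2 (Csa13g018780), a cold- and abscisic acid-induced protein, had 5, 9 and 13 CPM against 35, 23 and 22 CPM. PYL6 (Csa05g012440), an abscisic acid receptor, was the nominally higher member with 1, 2 and 2 CPM against 1, 0 and 0 CPM, at the lower limit of these values, and was nominal in none of the fits without replicate 2 or 3 of either group. Of the list, MYB2 (Csa04g066350) lies in the low region at the end of chromosome 4, with 3, 2 and 1 CPM against 4, 7 and 8 CPM. The control had 3, 1 and 2 CPM and *35S::acdS* 7, 4 and 6 CPM. How far the level of that region accounts for these low values was not tested.

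Arginine decarboxylase 2, the first step of putrescine synthesis and stress-inducible, had all 3 of its copies nominally lower without overlap, with a median log2 fold change of -1.51. Csa10g007430 had 83, 146 and 257 CPM against 422, 432 and 646 CPM, Csa11g007220 had 23, 38 and 52 CPM against 83, 90 and 146 CPM, and Csa12g008880 had 59, 71 and 90 CPM against 162, 173 and 239 CPM. In both groups and all copies the value of replicate 3 was the highest. The fitted changes were -1.74 (SE 0.40), -1.51 (SE 0.29) and -1.38 (SE 0.26) on the log2 scale, with adjusted p of 0.148, 0.115 and 0.111 (limma). The control mean lay between the groups for all copies, with 211, 203 and 176 CPM for the first. The 3 of 3 stayed without any single library.

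Carbohydrate genes were divided, with invertases and a vacuolar carrier nominally lower in 8R6-treated roots and sucrose symporters overlapping between the groups. The 3 vacuolar invertases, which split stored sucrose, were nominally lower in 8R6-treated roots, Csa03g015980 with 16, 19 and 35 CPM against 78, 60 and 99 CPM (log2 fold change -1.79, SE 0.39, adjusted p = 0.135, limma). The vacuolar sugar carrier SWEET16 (Csa19g023540) had 6, 5 and 4 CPM against 13, 9 and 17 CPM (log2 fold change -1.27, SE 0.21, adjusted p = 0.0873), with no overlap and the control at 6, 7 and 7 CPM. By contrast the 3 copies of sucrose-proton symporter 1, which loads sucrose, had fitted changes between -0.13 and 0.14, with wide libraries such as 48, 69 and 67 against 114, 33 and 49 CPM for Csa07g038820. In the whole list, 5 of 13 were nominally lower and 0 higher (1 without replicate 1 of either group or *rolD::acdS* replicate 3), with a median of -0.15. Genes induced by sugar starvation (DIN genes) were nominally lower in 7 of 8 cases, with a median of -1.68. Asparagine synthase 1 (DIN6, Csa04g030180) had 2, 3 and 2 CPM against 14, 8 and 11 CPM, and beta-glucosidase 30 (DIN2, Csa05g091890) had 8, 8 and 3 CPM against 17, 52 and 35 CPM. *35S::acdS*, at 57, 24 and 21 CPM for DIN2, was high as well. The 7 became 4 without replicate 3 of either group.

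The synthesis of myo-inositol, a precursor of osmolytes and of signalling lipids, split by gene. MIPS3 (Csa20g015440), a myo-inositol-1-phosphate synthase, had 6, 7 and 7 CPM in 8R6-treated and 2, 2 and 2 CPM in *rolD::acdS* roots, a log2 fold change of 1.52 (SE 0.30, adjusted p = 0.116, limma). Csa07g052330, annotated as MIPS2, had 4, 10 and 15 CPM against 46, 28 and 28 CPM and went the other way. Its log2 fold change was -1.90 (SE 0.52, adjusted p = 0.193, limma). A further MIPS2 copy, Csa09g086550, had 3, 5 and 11 against 13, 14 and 13 CPM. None of these overlapped. Galactinol synthase 4 (Csa07g061680), which feeds raffinose synthesis, had 25, 20 and 22 CPM against 31, 36 and 26 CPM with no overlap but an unadjusted p of 0.0868, and the aldose 1-epimerases overlapped. Over 8 members 1 was nominally higher, 2 were lower (1 without 8R6 replicate 1) and the median was -0.18.

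Most members of the bHLH and MYB lists of transcription factors had lower values in 8R6-treated than in *rolD::acdS* roots. Of 10 bHLH factors, 9 were nominally lower in 8R6-treated roots, all 9 without overlap, and the median was -1.45. An NAI1-like factor (Csa16g044520) had 32, 36 and 36 CPM against 57, 62 and 74 CPM, with the control at 39, 39 and 33 CPM and a log2 fold change of -0.88 (SE 0.11, adjusted p = 0.0511, limma). NAI1 controls the endoplasmic reticulum bodies that store beta-glucosidases in Brassicaceae roots. The 3 copies of bHLH125 had 5, 3 and 8 against 33, 20 and 40 CPM (Csa07g064290), 12, 6 and 9 against 33, 19 and 38 CPM (Csa09g097670) and 16, 10 and 30 against 59, 41 and 81 CPM (Csa16g055680). In each, replicate 2 was the lowest library of both groups. All 4 MYB factors were nominally lower, among them MYB29 (Csa08g056690), an activator of aliphatic glucosinolate synthesis, with 6, 11 and 15 CPM against 19, 27 and 34 CPM and MYB102 (Csa11g025000), listed at 0 in all libraries but those of *rolD::acdS*, which had 1, 1 and 2 CPM. MYB2, described above, is another of the 4 and lies in the low region at the end of chromosome 4. The 4 became 2 without *rolD::acdS* replicate 2 or without *rolD::acdS* replicate 3.

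Several defence genes were listed at 0 in all 8R6-treated libraries. For 3 genes with values here, 2 of them of this kind, the study designed droplet digital PCR (ddPCR) assays, and the probes are shown because they mark the transcripts that these values count. As taken from the study's table of primers and probes, they read, 5′ to 3′:
Csa20g044800: cagttctgatcaaatcgttgttcaaac
Csa07g039380: cccaaacactccttccgtaccag
Csa17g080380: tgccccgacatcaaccaaagt
They are 27, 23 and 21 bases long and lie on genes of chromosomes 20, 7 and 17.

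Csa20g044800, annotated as myrosinase-binding protein 2, a lectin that associates with the glucosinolate-cleaving enzyme, was listed at 0 in all 8R6-treated libraries and had 18, 3 and 27 CPM in *rolD::acdS* (unadjusted p = 0.00221, adjusted p = 0.164, limma). The control, with 7, 13 and 0 CPM, overlapped *rolD::acdS* in replicates 1 and 2 and matched the 8R6-treated libraries in replicate 3. Csa07g039380, annotated as a WSCP-like cysteine protease inhibitor, was likewise listed at 0 in 8R6-treated roots. It had 1, 1 and 3 CPM in *rolD::acdS* and 1, 7 and 0 CPM in the control (adjusted p = 0.314, limma). Csa17g080380, of the GH3 family that conjugates auxin or jasmonate to amino acids, had 1, 0 and 0 CPM against 3, 1 and 4 CPM, and the groups touched at 1 CPM.

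Thionins, small antimicrobial peptides, were nominally lower in 6 of 8 cases and 0 were higher, with a median of -1.68. Csa13g048920 had 1, 2 and 1 CPM against 10, 6 and 16 CPM, a log2 fold change of -2.55 (SE 0.45, adjusted p = 0.106, limma). The control, at 9, 9 and 3 CPM, lay near *rolD::acdS* in replicates 1 and 2. Another thionin, Csa01g012200, had 16, 20 and 15 CPM against 43, 36 and 56 CPM, and here the control at 24, 28 and 13 CPM lay near the 8R6-treated level. Of 17 pathogenesis-related proteins, defensins, inhibitors and lectins, 7 were nominally lower, 2 higher, and the median was -1.10. Among the lower was a basic chitinase (Csa15g016370), which breaks down fungal walls, with 6, 5 and 8 CPM against 96, 8 and 43 CPM, where *rolD::acdS* replicate 2 just met the 8R6-treated range. The 2 higher members, which the study names PR1, are annotated as putative pathogenesis-related proteins. They had 214, 117 and 130 against 110, 36 and 23 CPM (Csa12g010010) and 12, 11 and 11 against 6, 7 and 4 CPM (Csa10g008480). Another gene, annotated as pathogenesis-related 1 (Csa19g044900), had 1, 2 and 1 against 1, 1 and 0 CPM, and its groups overlapped. The lower count became 4 without 8R6 replicate 2, and the higher count 1 without *rolD::acdS* replicate 3.

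**Figure D5:**
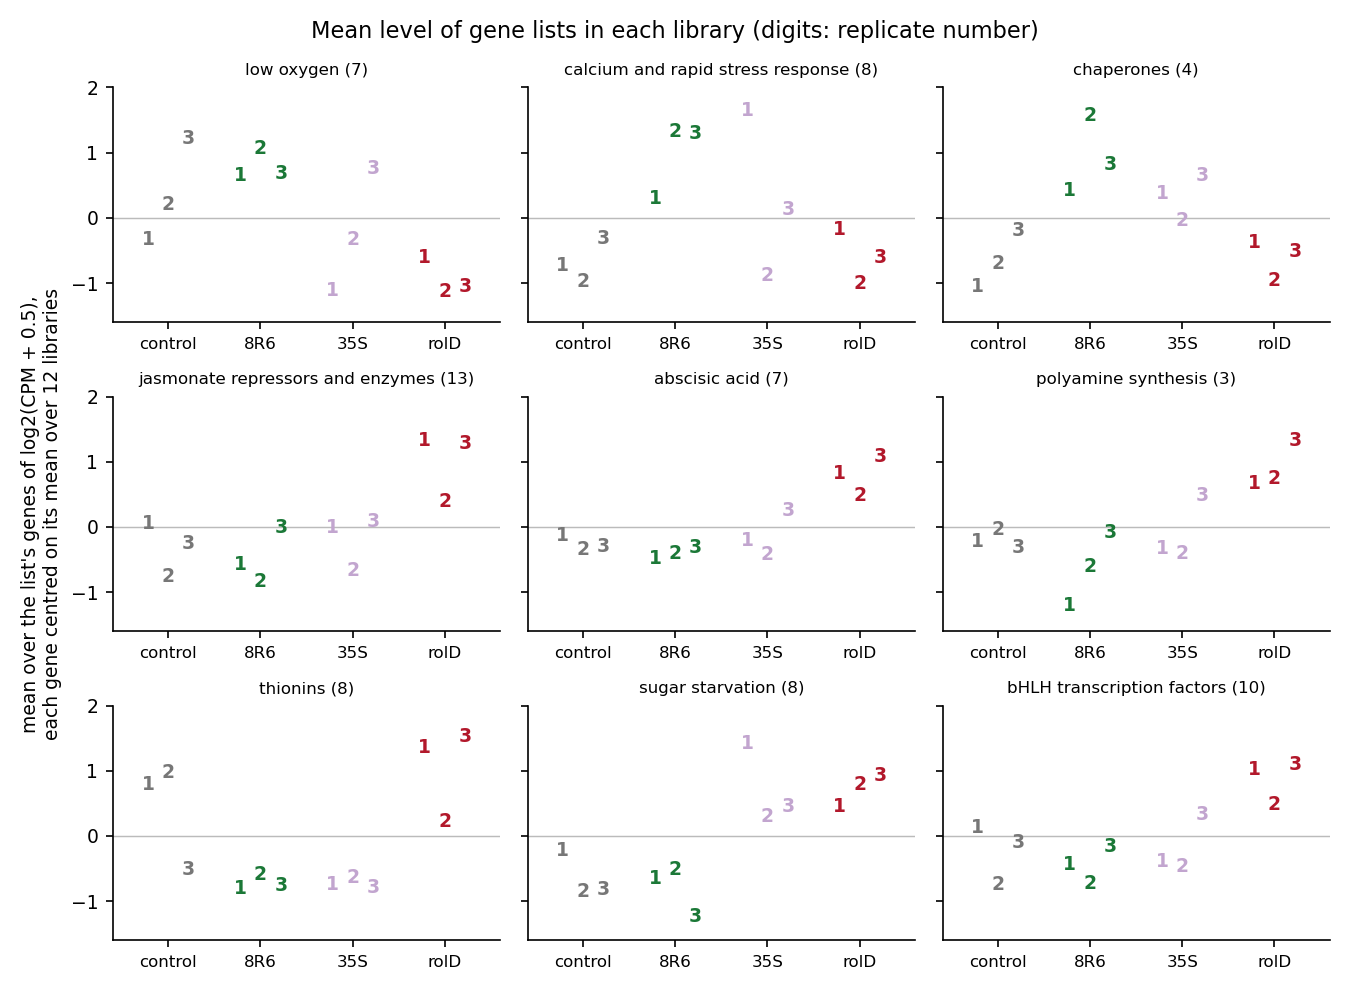
Mean log2(CPM + 0.5) over the genes of 9 lists in each library, each gene centred on its mean over the 12 libraries, with digits for the replicate number and the number of genes in parentheses. For the calcium list the 8R6-treated replicates sit at 0.30 for replicate 1 and 1.33 for replicate 2, and *35S::acdS* replicate 1 at 1.65, and for low oxygen control replicate 3 sits at 1.22 beside the 8R6-treated libraries at 0.65, 1.07 and 0.68.

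Cell wall genes had 6 of 11 members nominally lower and 2 higher, with a median of -1.36. Polygalacturonase-inhibiting protein 2 (PGIP2, Csa20g009230), which guards pectin against degradation, had 0, 1 and 3 CPM against 16, 6 and 18 CPM, and mannanase 1 (Csa14g002340) had 3, 4 and 6 CPM against 13, 13 and 13 CPM (log2 fold change -1.53, SE 0.27, adjusted p = 0.106, limma). Neither overlapped. Cellulose synthase-like G3 (Csa10g019050) had 5, 3 and 2 CPM against 10, 10 and 14 CPM, a log2 fold change of -1.68 (SE 0.29, adjusted p = 0.0968), and *35S::acdS* was high at 25, 17 and 16 CPM. The lower count became 3 without 8R6 replicate 1 or *rolD::acdS* replicate 3, and the higher count became 0 without replicate 3 of either group or *rolD::acdS* replicate 2 and 1 without any other single library except 8R6 replicate 2 and *35S::acdS* replicates 1 and 2. Nod19-like proteins, listed as stress-induced, had 2 of 3 nominally lower, Csa18g035240 with 1, 2 and 2 CPM against 8, 11 and 10 CPM.

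Secondary metabolism differed gene by gene. In the glucosinolate list 2 of 5 were nominally lower, 0 higher, and the median was -0.63, and benzoyloxyglucosinolate 1 (Csa07g029810) had 0, 1 and 3 CPM against 7, 5 and 11 CPM. For the side chain enzymes CYP79F1 and methylthioalkylmalate synthase the groups overlapped, the latter (Csa08g017380) with 8, 15 and 25 CPM against 8, 16 and 30 CPM. Over 6 tryptophan, camalexin and P450 genes 2 were nominally lower and the median was 0.20, with PAD3 (Csa09g011480), the last enzyme of camalexin synthesis, at 6, 5 and 3 against 10, 6 and 9 CPM, where the groups touched, and its other copy (Csa06g006620) at 3, 4 and 3 against 4, 1 and 3 CPM, overlapping, with a log2 fold change of 0.41. The lower count became 1 without 8R6 replicate 3 or *rolD::acdS* replicate 1 or 3. The higher count of 0 became 2 when *35S::acdS* replicate 1 or 2 was left out, and 1 when *rolD::acdS* replicate 1 was. Of 5 flavonoid and acyltransferase genes 1 was nominally higher and 2 were lower (median -0.69), and the lower count became 0 without 8R6 replicate 2 or *rolD::acdS* replicate 3 and 1 without any other library except 8R6 replicate 3 and those of *35S::acdS*.

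Auxin conjugation genes, 12 of the 13 listed by the study for *35S::acdS* only, had 2 of 12 nominally higher and 4 lower, with a median of -0.24. Of the 2 higher, Csa03g010320 had 7, 9 and 7 against 4, 5 and 4 CPM. It is annotated as 4-substituted benzoates-glutamate ligase-like, and not as an auxin enzyme. The other, the GH3 gene Csa10g003770, had 1, 1 and 0 against 0, 0 and 0 CPM. The 3 copies of UGT73C7, a glucosyltransferase, had similar shifts, Csa06g027600 with 50, 36 and 58 CPM against 71, 68 and 103 CPM (log2 fold change -0.74, SE 0.23, adjusted p = 0.228, limma). The lower count became 2 without *rolD::acdS* replicate 3, and the higher count 1 without 8R6 replicate 1 or 2. Peroxidases were nominally higher in 1 and lower in 2 of 8 cases, with a median of 0.50, the lower being peroxidase CA (Csa04g034500) with 33, 55 and 52 CPM against 106, 93 and 129 CPM and peroxidase CB (Csa06g023070), which forms hydrogen peroxide in the cell wall, with 40, 45 and 35 CPM against 72, 55 and 65 CPM. The higher count became 0 without 8R6 replicate 1 or *rolD::acdS* replicate 3, 2 without 8R6 replicate 2 or 3 and 4 without *rolD::acdS* replicate 1, and the lower count 1 without 8R6 replicate 3 or *rolD::acdS* replicate 1.

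Ion and water transport genes, nearly all from the *35S::acdS* list, had 1 of 13 nominally higher and 1 lower, against 6.79% and 6.16% of all genes, with a median of 0.23. The higher count became 2 without 8R6 replicate 1 and 4 without *rolD::acdS* replicate 1. HKT1, which withdraws sodium from the xylem, had 42, 33 and 42 CPM against 75, 46 and 40 CPM in Csa02g026480 and 66, 45 and 54 against 84, 55 and 41 CPM in Csa08g040240. Its groups overlapped, and the 95% intervals of the log2 fold changes, from -1.05 to 0.23 and from -0.74 to 0.58, include changes of either direction. The higher member was the aquaporin NIP2-1 (Csa06g036830), itself a low oxygen-induced channel, with 11, 10 and 5 CPM against 1, 0 and 0 CPM and control replicate 3 at 11 CPM. The lower was KAT1 (Csa11g065760), a potassium inward channel, listed at 0 in 8R6-treated roots with 1, 6 and 6 CPM in *rolD::acdS* (adjusted p = 0.0715, limma). Of 11 lipid transfer proteins 2 were nominally higher and 0 lower (median 0.19), including DIR1 (Csa11g074620), a carrier in systemic resistance, with 11, 28 and 28 CPM against 9, 7 and 7 CPM, and 1 was lower without 8R6 replicate 1 or *rolD::acdS* replicate 3. The DIR1-like genes Csa11g088600, Csa18g026870 and Csa02g057930 went the other way, with log2 fold changes of -1.22, -0.43 and -0.19 and overlapping groups.

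No difference stood out among salicylic acid regulators. Of 7 genes for NIM1-interacting 2, WRKY51, WRKY54 and a DMR6-like oxygenase, 0 were nominally higher and 0 lower, the median was -0.18, and the fitted values lay between -0.29 and 0.12. *RolD::acdS* replicate 2 was high throughout, as in 9, 11 and 11 against 8, 23 and 11 CPM for Csa04g011120.

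Marker genes bear on how far the tissue was alike. The 4 green tissue genes, light-harvesting proteins and ELIP1, summed to 3, 3 and 3 CPM in 8R6-treated and 4, 6 and 7 CPM in *rolD::acdS* libraries, near 0 in both, with 1 of 4 nominally lower (ELIP1, at 0 in all 8R6-treated libraries), or 2 without 8R6 replicate 1 or 2 or *rolD::acdS* replicate 1. The 7 endodermis and stele genes summed to 125, 88 and 107 against 157, 87 and 70 CPM, overlapping, with 1 nominally higher and 0 lower, so genes of inner root tissue were present in all 6 libraries. In both groups replicate 1 was the highest for these genes. The 1 nominally higher became 5 without *rolD::acdS* replicate 1, and 0 without any other single library except 8R6 replicates 2 and 3. The study listed all 7 endodermis and stele genes, and 3 of the 4 green tissue genes, for *35S::acdS* only. They were thus chosen on libraries of this series and are not independent markers of a cell type. The part of tissue make-up in the gene groups above was not tested.

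The control and *35S::acdS* libraries show where the 2 groups stood. For 88.8% of the 6232 genes at an unadjusted p of at most 0.05 the control mean lay between the 2 group means, as it did for 50.1% of all genes with a difference, and the *35S::acdS* mean lay between for 79.0%. The *35S::acdS* mean was nearer to *rolD::acdS* than to 8R6-treated roots for 62.8% of the genes, against 56.2% of all. Because these genes were picked for their extremes, means of other groups tend to lie between, and the shares are a description only.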

How the data were processed

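Root RNA of 12 camelina libraries was sequenced with TruSeq kits. Per the labels and the methods of the study, the authors used Trimmomatic on the reads and STAR for alignment to the *C. sativa* reference and to transcripts from NCBI, scaled counts by library size to CPM and normalised further with DESeq, and used edgeR for their own tests. Tool versions are not given in the sources used here. The deposited values are held as a score, whole-number CPM in 100% of cells, so the authors are taken to have rounded them, and no count test was run. Library sums ran from 887898 to 947036, and the depth is unknown.

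From these values log2(CPM + 0.5) was fitted with limma 3.58.1 in R 4.3.3 (12 libraries, group means, empirical Bayes with a trend), with 8 residual and 2.59 prior degrees of freedom. Genes needed 1 CPM in 3 libraries. Benjamini-Hochberg adjustment ran over 48099 genes, and a called gene had an absolute log2 fold change above 0.8 at an adjusted p not over 0.05, which are the study's limits. Values in sentences run in replicate order. The fit was tested on simulated data. Figures were drawn in Python 3.11.15 with matplotlib 3.10.9.

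The members and lists were chosen with earlier results of these data known. Genes were named if called, if among the 10 per direction with the smallest p, a log2 fold change above 0.8, at least 5 CPM in the higher group and no overlap, if nominal list members (up to 4 per direction, with their copies), or if a probe exists. Other list members and the chromosome 4 genes were named after their values were seen. Of 220 list genes, 10 have no row and 2 failed the filter, and these were not analysed here. Chromosome and order are read from the identifiers. A second sheet, of column names, was not used. Each library was left out in turn, and the other alternatives were a pseudocount of 0.1 or 1, no filter or a mean of 5 CPM, median-of-ratios or quantile scaling, a fit of the 6 libraries alone, a replicate block, a prior without trend or a robust one, and calls at any fold change. Added after seeing the data were fits without the end of chromosome 4, without control and 8R6 replicates 2, and without genes equal within every group.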

Additional observations from a re-analysis of the deposited data

How the results depend on the processing

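Counts of called genes moved with most settings, while the nominal counts moved beyond 1.5 times only without *rolD::acdS* replicate 3. Against 3 higher and 1 lower, the called counts were 6 and 9 with a pseudocount of 0.1, 0 and 0 with a pseudocount of 1, 4 and 11 without a filter, 9 and 15 with a mean of at least 5 CPM, 6 and 5 with median-of-ratios size factors, 6 and 9 after quantile normalization, 22 and 22 when only the 6 libraries were fitted, 3 and 6 without a trend and 10 and 17 with robust empirical Bayes. Leaving out the limit on the fold change gave 3 and 1. With single libraries left out they ranged from 0 to 31 higher and from 0 to 28 lower, with 0 and 0 without replicate 2 of either group, 31 and 20 without *rolD::acdS* replicate 1 and 12 and 28 without control replicate 1, and the nominal counts from 2143 to 4379 higher and from 1850 to 3827 lower, the lowest of both without *rolD::acdS* replicate 3. Added after seeing the data, the counts were 6 and 6 with the end of chromosome 4 left out, 0 and 0 without control and 8R6 replicates 2, and 5 and 11 without genes equal within every group. With the replicate number as a block, 0 genes were called higher and 1 lower, and 3728 and 3484 were nominal. None of the 4 called genes remained, and the 1 was RAP2.6 (Csa03g046520, adjusted p = 0.0195, limma). Same-numbered libraries deviated together with correlations of 0.41, 0.03 and 0.36, and 8R6 replicate 2 correlated better with *rolD::acdS* replicate 3 (0.19) than with its own number, so the numbers are not taken as pairs. Of 126 named genes, 124 kept their sign in those of the 26 alternatives that tested them. The log2 fold change of Csa10g045310 turned to 0.00799 without 8R6 replicate 2 (from -0.57 to 0.00799 over single libraries left out) and to 0.00799 without control and 8R6 replicates 2, and that of Csa06g006620 to -0.0604 without *rolD::acdS* replicate 2 (from -0.0604 to 0.73). Depth is unknown, and values in steps of 1 CPM limit low genes, with a median SE of the log2 fold change of 0.36 below a mean of 2 CPM (4274 genes) and 0.13 between 20 and 100 CPM. The cause of these shifts was not tested.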

Other observations

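A pair of neighbourhoods outside the lists were noticed in the order of the genes after their values were seen, and are given as values without a test of the neighbourhood.
On chromosome 11, the 6 consecutive genes from Csa11g053960 to Csa11g055010, which the sources used here do not annotate, all had an unadjusted p of at most 0.05 and higher values in 8R6-treated roots. Csa11g054000 had 100, 143 and 148 CPM in 8R6-treated and 48, 43 and 49 CPM in *rolD::acdS* roots, with 38, 38 and 86 CPM in the control and 51, 42 and 55 CPM in *35S::acdS* (log2 fold change 1.45, SE 0.28, adjusted p = 0.115, limma). Its groups did not overlap, and control replicate 3 alone came near the 8R6-treated level. Its neighbour Csa11g053990 had 20, 26 and 25 CPM against 10, 8 and 8 CPM, with 11, 10 and 17 CPM in the control (log2 fold change 1.40, SE 0.18, adjusted p = 0.0511). At the ends of the run, Csa11g053910 had 3, 4 and 3 against 3, 3 and 3 CPM and Csa11g055020 had 1, 1 and 1 against 1, 1 and 1 CPM, and these groups overlapped. Control replicate 3 was the highest control library for each of the 6 genes, level with replicate 2 for Csa11g053970.

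On the scaffold of the called gene Csa00485s040, 6 genes had a row. Csa00485s020 had 9, 8 and 8 CPM in 8R6-treated roots and 4, 4 and 4 CPM in *rolD::acdS* (log2 fold change 0.97, SE 0.14, adjusted p = 0.0642, limma). Csa00485s030, which lies between the pair in identifier order, had 13, 14 and 13 against 11, 12 and 10 CPM, also without overlap but with a smaller log2 fold change of 0.27 (SE 0.10). The other 3 overlapped between the groups. What these genes encode was not analysed here, and overlapping or antisense gene models were not examined.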
